A study of Mus musculus with 12 samples.

Results

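The genes described here are 10 genes that osteoclasts use to dissolve bone: Acp5, Ctsk, Mmp9, Mmp14, Car2, Clcn7, Ostm1, Slc4a2, Snx10 and Plekhm1. They were taken by symbol from the 24421 genes listed for each library, and all 10 were listed. RNA-seq was performed on bone marrow-derived macrophages (BMMs), the primary osteoclast precursors, from C57BL/6 mice. All cells were grown with M-CSF, the macrophage growth factor, for 3 days. RANKL, the cytokine that drives osteoclast formation, was then given to some cultures for 5 days. There were 6 conditions with 2 libraries each. WT cells were Mir182+/+LysMcre(+), and Mir182ΔM/ΔM cells (KO in the plots) were Mir182flox/floxLysMcre(+), and both were measured without RANKL (baseline) and after RANKL. Their baseline libraries are given as day 0 of RANKL, while the study's figure legend describes 5 days with or without it. Time in culture may therefore be part of a RANKL response, and this was not tested. Control cells were LysMcre(+) and Mir182mTg cells (mTg in the plots) were LSL-Mir182LysMcre(+), and both were measured at baseline only. Every mouse therefore carried LysMcre, in which the lysozyme M promoter of myeloid cells drives Cre. The labels do not say whether the replicates of a condition came from separate animals or cultures, so p-values measure the spread between these libraries, which may be technical. The study's methods call them biological replicates. The difference between replicates 1 and 2 was partly shared by the conditions, with correlations of 0.686 to 0.754 between conditions. The labels give poly-A RNA for replicate 1 and total RNA for replicate 2, and the part of this in the shared difference was not tested. Tests without the replicate number as a block count the shared difference as spread between libraries.

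An osteoclast seals off a patch of bone and opens a ruffled border onto it, a membrane built by the fusion of lysosomes with the cell surface. Carbonic anhydrase II supplies the protons, a V-ATPase pumps them out, and chloride follows through a lysosomal exchanger while bicarbonate leaves at the opposite face of the cell. The acid dissolves the mineral, and cathepsin K and metalloproteinases digest the collagen. Inherited loss of several of these genes gives dense bone in mice and humans.

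miR-182 is the microRNA deleted in Mir182ΔM/ΔM cells and overexpressed in Mir182mTg cells. Its sequence and its matches among the 10 genes are shown first because they set which members carry a seed match for it. The mature form lies at chr6:30165962-30165986 on the minus strand of GRCm38 (RefSeq), and the capitals mark its seed, bases 2 to 8.
mmu-miR-182-5p: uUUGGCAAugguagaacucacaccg
Matches were searched in the annotated 3′ UTRs of GENCODE vM21 as TTGCCAA and TGCCAAA, which overlap in the longer TTGCCAAA. Of the 10 genes, 3 held a match, against 18.3% of the 21020 genes with an annotated 3′ UTR. The longer form occurred in Ostm1 alone of the 10, and in 4.46% of all genes. The capitals below mark the match, at chr10:42700944-42700951 and chr10:42702323-42702329 in Ostm1 (plus strand), chr6:51590434-51590440 in Snx10 (plus strand) and chr11:103366332-103366338 in Plekhm1 (minus strand).
Ostm1, first match: aaacatacTTGCCAAAtggtagca
Ostm1, second match: tgaaaatgTGCCAAAgaatttca
Snx10: tattttaaTGCCAAAaggaagtg
Plekhm1: gtgtcatgTGCCAAAtggcctgt
None of these 3 genes passed the main test between genotypes at baseline, and the match is a description of the letters, not of binding.

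Promoters are shown for the 3 members whose window held the least common of the motifs searched. Each window runs from 250 bases before to 50 bases after an annotated start (RefSeq, GRCm38.p6), and 8 of the 10 genes had at least 1 window in the table, 14 windows in all. Motifs were searched on both strands. TCACGTGA, the core letters of the CLEAR element read by the lysosomal regulators TFEB and TFE3, was found in Clcn7 alone of the members and in 0.974% of all 32851 windows. It holds the E-box CACGTG, which 7.15% of windows contain and which occurred a second time in Clcn7. TCATGTGA, the M-box read by MITF, was found in a window of Acp5, in reverse orientation, and in 0.986% of all windows. TGANTCA, the AP-1 letters, was found in a window of Snx10 and in 7.81% of all. The capitals mark these matches.
Acp5, chr9:22130549-22130848, minus strand: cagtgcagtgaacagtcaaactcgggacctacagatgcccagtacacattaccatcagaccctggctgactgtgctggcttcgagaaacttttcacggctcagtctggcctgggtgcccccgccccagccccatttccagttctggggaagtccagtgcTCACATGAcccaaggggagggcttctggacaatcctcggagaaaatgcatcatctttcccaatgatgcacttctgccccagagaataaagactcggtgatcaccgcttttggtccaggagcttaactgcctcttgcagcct
Clcn7, chr17:25133141-25133440, plus strand: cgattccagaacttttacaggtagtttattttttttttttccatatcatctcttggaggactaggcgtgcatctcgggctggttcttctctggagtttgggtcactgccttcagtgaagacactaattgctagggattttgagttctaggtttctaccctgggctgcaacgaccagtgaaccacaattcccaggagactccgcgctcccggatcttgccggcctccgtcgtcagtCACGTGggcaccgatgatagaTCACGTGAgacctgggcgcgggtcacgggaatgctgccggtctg
Snx10, chr6:51523834-51524133, plus strand: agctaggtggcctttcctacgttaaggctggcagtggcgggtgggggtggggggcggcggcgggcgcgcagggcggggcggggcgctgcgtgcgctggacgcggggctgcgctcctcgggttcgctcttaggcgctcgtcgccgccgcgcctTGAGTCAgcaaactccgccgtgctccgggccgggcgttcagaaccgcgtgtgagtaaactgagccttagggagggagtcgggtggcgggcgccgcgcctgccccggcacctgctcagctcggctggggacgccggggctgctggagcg
GAGGAA, letters read by PU.1, occurred in 28.3% of all windows and in those of Ctsk, Slc4a2 and Snx10, and GGAAA, the NFAT letters, in 61.3% of all windows and in those of 6 members.

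Depth was 24951280 to 33050619 reads on genes per library. Expression is given as CPM, reads on a gene scaled to a library total of 1000000, and 3 reads correspond to 0.0908 to 0.120 CPM. The check of the targeted gene was possible only in the transgenic cells, since the libraries do not measure mature microRNA. The Mir182 row had 79 and 123 reads in the Mir182mTg libraries and at most 1 read in every other library. Before the results, 1 group of libraries has to be set apart, the WT libraries after RANKL, which were unlike the other 6 of their experiment in genes outside resorption. Lyz2, the gene of lysozyme M, was at 4117 and 4288 CPM there, against 39.8 to 44.0 in WT cells at baseline and 22.5 to 34.6 in Mir182ΔM/ΔM cells. Ifi202b, an interferon-inducible gene, was at 1.12 and 0.972 CPM there, against 82.1 to 152 in the other 6 loss of function libraries. In both genes the WT libraries after RANKL resembled the Control libraries, with Lyz2 at 5783 and 6615 CPM and Ifi202b at 0. Genotype or RANKL and this difference cannot be told apart in the comparisons that use the WT libraries after RANKL. The RANKL response of Mir182ΔM/ΔM cells does not use them.

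In WT cells RANKL raised 7 of the 10 genes, lowered 2 and left Clcn7 just short of the threshold. Changes were tested with limma on log2(CPM + 1) over 11691 genes, and a gene was called at an adjusted p below 0.05. Of all genes tested, 40.6% were called higher and 22.0% lower in this comparison. In Mir182ΔM/ΔM cells RANKL raised 6 and lowered 2 of the 10 genes, against 30.4% and 26.4% of all genes. After RANKL, 9 of the 10 genes were lower in Mir182ΔM/ΔM than in WT cells and 0 were higher, where 30.9% and 14.3% of all genes were lower and higher. At an unadjusted p below 0.05 also 0 were higher. On reads, edgeR and DESeq2 each called 1, Plekhm1, higher, and neither called Clcn7 or Ostm1 lower. The median log2 fold change over the 10 genes was -1.16, beside -0.14 over all genes. At baseline, only Mmp14 was called between these genotypes in the main test, being lower, and 1.1% of all genes were called lower and 2.71% higher. None of the 9 members tested was called between Mir182mTg and Control cells, where 0.0993% of all genes were called higher and 0.157% lower by edgeR's quasi-likelihood test. At an unadjusted p below 0.05, 2 members were higher and 1 lower in that comparison. With the replicate number as a block, 2 members were called higher and 2 lower, beside 6.94% and 8.15% of all genes. DESeq2 called Ctsk higher.

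**Figure D1:**
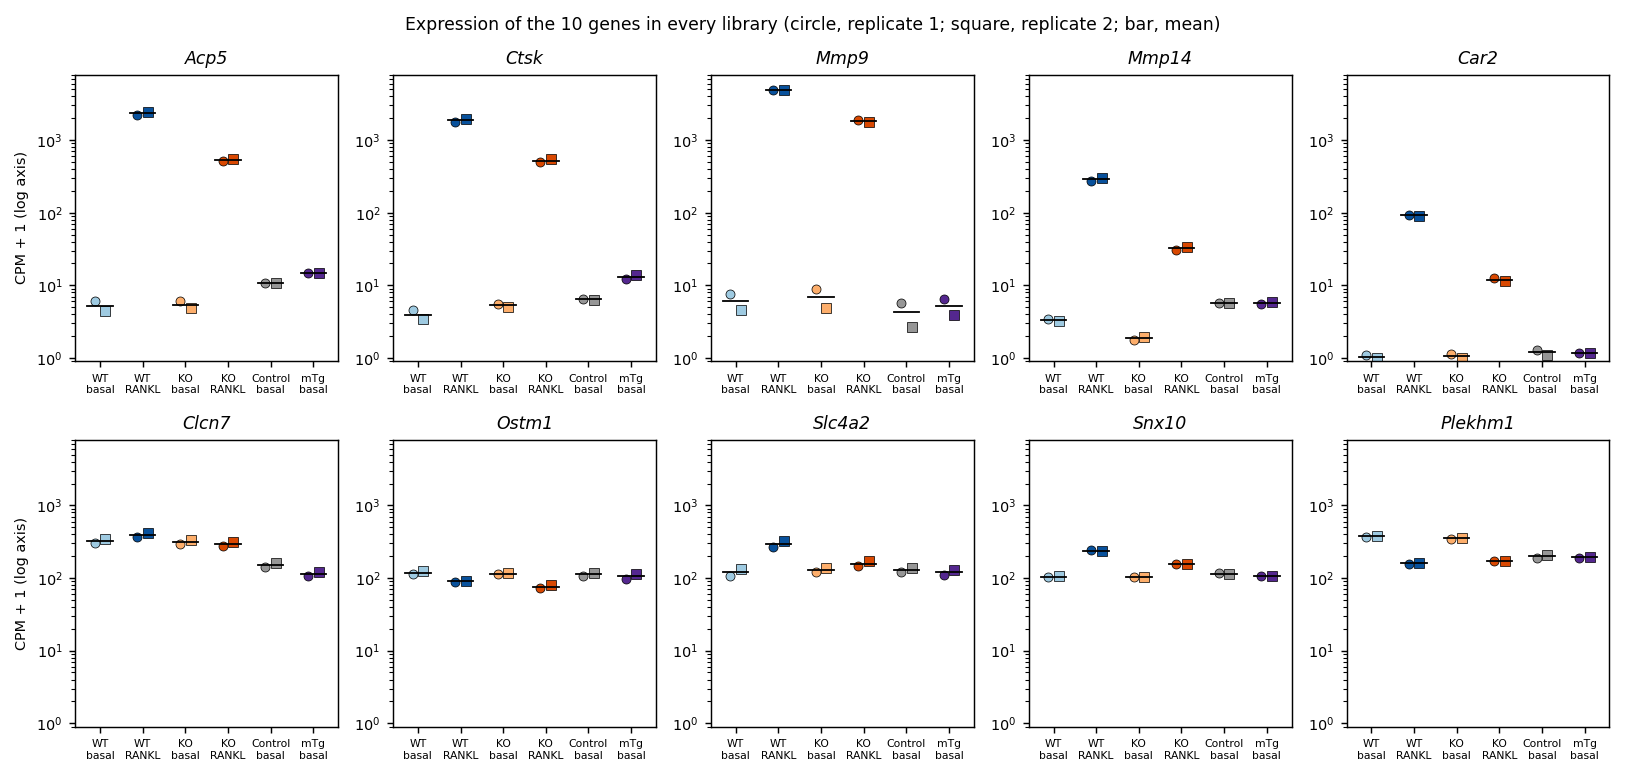
CPM + 1 on a log axis for each gene (panel) in each of the 12 libraries, by condition, with replicates as circles and squares and the mean as a bar. Acp5, Ctsk, Mmp9, Mmp14 and Car2 sat at or below 13.6 CPM in every library without RANKL and at 10.4 CPM or more in every library after RANKL, while the other 5 genes stayed between 72.0 and 411 CPM throughout.

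Scaling with TMM factors, which centre the typical gene, moved the median log2 change of all genes from 0.19 to -0.00 in the WT response, from -0.14 to -0.00 in the genotype comparison after RANKL, and from -0.15 to 0.01 in the genotype by RANKL interaction. Under TMM, 28.8% of all genes were called higher and 30.5% lower in the WT response, and 20.9% higher and 20.2% lower between genotypes after RANKL. The 7 genes that rose and the 2 that fell in WT cells did so under TMM too. Between genotypes after RANKL, 7 of the 10 genes stayed lower under TMM. Clcn7 and Ostm1 lost their calls, at adjusted p 0.126 and 0.372, and Plekhm1 became higher, by 0.24 on the log2 scale (adjusted p = 0.0132, limma). The values below are on the unshifted scale, and the TMM value stands beside those of Clcn7, Ostm1 and Plekhm1.

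Per kilobase of gene model, the most abundant members in WT cells at baseline were the lysosomal and traffic genes Clcn7 and Plekhm1, at 78.7 and 72.8 CPM per kb, and their libraries overlapped. Ostm1 and Snx10 followed at 38.9 and 38.3 CPM per kb, also overlapping, and Slc4a2 at 28.8. Acp5, Ctsk and Mmp9 lay at 2.61, 1.87 and 1.62 CPM per kb, each overlapping its neighbour in the order, and Mmp14 at 0.884. Car2 was last at 0.0256 CPM per kb, from 3 reads in 1 library and 0 in the other. After RANKL the order in WT cells was turned over, and neighbours no longer overlapped. Mmp9 led at 1554 CPM per kb, before Acp5 at 1442 and Ctsk at 1181. Mmp14 was 4th at 110.4 CPM per kb and Car2 8th at 50.9, above Plekhm1 at 31.0 and Ostm1 at 29.7. In Mir182ΔM/ΔM cells after RANKL the same 3 genes led, with Mmp9 at 578 CPM per kb and Acp5 and Ctsk overlapping at 329 and 328. Mmp14, at 11.6 and 12.4 CPM per kb, and Car2, at 6.46 and 5.80, were the last in the order there.

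**Figure D2:**
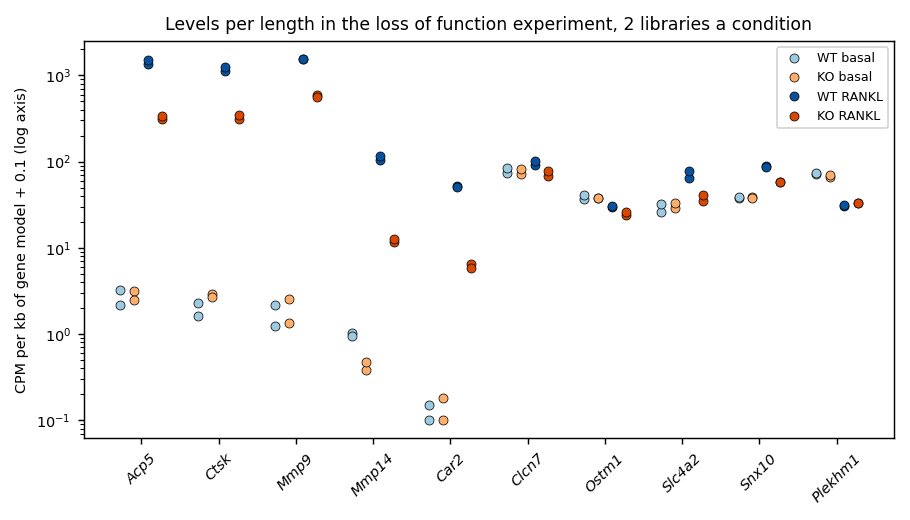
CPM per kb of gene model, plus 0.1, on a log axis for the 10 genes in the 8 loss of function libraries, 2 points a condition. The 5 genes on the left span several powers of 10 between baseline and RANKL, and their points after RANKL are lower in KO than in WT cells.

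In CPM, the secreted enzymes Acp5, Ctsk and Mmp9 showed the widest range of the members. Acp5, which encodes tartrate-resistant acid phosphatase (TRAP), had 5.08 and 3.37 CPM in WT cells at baseline and 2195 and 2466 CPM after RANKL. The Mir182ΔM/ΔM cells had 5.00 and 3.81 CPM at baseline and 509.8 and 553 CPM after RANKL. Both genotypes started level and both rose, but the Mir182ΔM/ΔM libraries after RANKL reached 23.2% and 22.4% of the WT level. The ratio of means was 552 for RANKL in WT cells and 121 in Mir182ΔM/ΔM cells. Between genotypes after RANKL the log2 change was -2.13 ± 0.17 (SE; adjusted p = 8.50e-05, limma).

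Ctsk, which encodes cathepsin K, the main collagen-cleaving protease of the osteoclast, followed the same course. It was at 3.52 and 2.40 CPM in WT cells at baseline and at 1778 and 1962 CPM after RANKL. Its level in Mir182ΔM/ΔM cells was 4.51 and 4.07 CPM and then 492 and 547 CPM. The baseline libraries of the genotypes did not overlap, Mir182ΔM/ΔM being higher, while after RANKL Mir182ΔM/ΔM was lower in both replicates. RANKL raised Ctsk by 8.90 ± 0.14 on the log2 scale in WT cells (adjusted p = 7.04e-08) and by 6.62 ± 0.14 in Mir182ΔM/ΔM cells (adjusted p = 1.78e-07, limma). The baseline difference, 0.43 ± 0.14, did not pass (adjusted p = 0.178) but did once the replicate number entered the fit as a block (adjusted p = 4.40e-04, limma). With the block, Plekhm1 was lower at baseline as well, by -0.10 ± 0.03 (adjusted p = 0.0191, limma), and 18.6% of all genes were called higher and 12.7% lower.

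Mmp9, which encodes gelatinase B, had the highest CPM of the 10 genes after RANKL. WT cells held 6.66 and 3.61 CPM at baseline and 4943 and 4921 CPM after RANKL. Mir182ΔM/ΔM cells held 7.88 and 3.92 CPM at baseline and 1881 and 1790.0 CPM after RANKL. The baseline spread between replicates was wide in every condition, replicate 1 being the higher, and the groups overlapped there but not after RANKL. Mir182ΔM/ΔM cells kept 38.1% and 36.4% of the WT level in the replicates after RANKL, a log2 change of -1.43 ± 0.30 (adjusted p = 8.01e-03, limma).

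Mmp14 encodes the membrane-bound metalloproteinase MT1-MMP and was the member with the largest genotype difference. It was at 2.38 and 2.20 CPM in WT cells at baseline and at 269 and 304 CPM after RANKL. In Mir182ΔM/ΔM cells it was at 0.740 and 0.970 CPM and then at 30.1 and 32.2 CPM. No library of Mir182ΔM/ΔM cells reached its WT counterparts in either state. The log2 change between genotypes was -3.16 ± 0.11 after RANKL (adjusted p = 2.06e-06) and -0.83 ± 0.11 at baseline (adjusted p = 0.0090, limma). The baseline call was lost when replicate 1 of WT, replicate 2 of WT or replicate 1 of Mir182ΔM/ΔM at baseline was left out, at adjusted p 0.0655, 0.0512 and 0.0724, and when only the 4 baseline libraries were fitted (adjusted p = 0.0791). It was also lost under a filter of at least 1 CPM in every library, which Mmp14 did not pass.

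In the acid supply, Car2 changed most. It encodes carbonic anhydrase II, which makes protons and bicarbonate from carbon dioxide and water. At baseline Car2 had 3 and 0 reads in the WT libraries and 4 and 0 in the Mir182ΔM/ΔM libraries. After RANKL it was at 92.1 and 90.1 CPM in WT cells and at 11.6 and 10.4 CPM in Mir182ΔM/ΔM cells. It was thus close to undetected in all baseline libraries and present in all libraries after RANKL. The ratio of CPM from the summed reads was 1750.1 in WT cells (95% exact counting interval 598 to 8489) and 148 in Mir182ΔM/ΔM cells (57.7 to 546), intervals that cover counting error only. After RANKL, where reads were many, Mir182ΔM/ΔM cells held 12.55% and 11.5% of the WT level (log2 change -2.94 ± 0.11, adjusted p = 3.34e-06, limma).

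Slc4a2 encodes the anion exchanger AE2, which exports bicarbonate in exchange for chloride. It was at 107 and 133 CPM in WT cells at baseline and at 269 and 322 CPM after RANKL. In Mir182ΔM/ΔM cells it was at 119 and 136 CPM and then at 146 and 169 CPM. The WT libraries after RANKL stood above all others, and the Mir182ΔM/ΔM libraries after RANKL stood above their baseline by a margin close to the spread between replicates. RANKL raised Slc4a2 by 1.29 ± 0.14 on the log2 scale in WT cells (adjusted p = 1.91e-04). The value in Mir182ΔM/ΔM cells was 0.30 ± 0.14 (adjusted p = 0.112, and 1.32e-07 with the replicate block, limma). After RANKL the genotypes differed by -0.90 ± 0.14 (adjusted p = 2.02e-03, limma).

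Clcn7 encodes the lysosomal chloride-proton exchanger ClC-7, and Ostm1 encodes the subunit that holds it stable. Clcn7 had 299 and 341 CPM in WT cells at baseline and 368 and 411 CPM after RANKL. The Mir182ΔM/ΔM libraries had 289.9 and 335 CPM and then 279 and 312 CPM. All 4 conditions lay within a narrow band, with the WT libraries after RANKL at its top. The WT response was 0.28 ± 0.11 (adjusted p = 0.0542, and 1.27e-08 with the replicate block), and it was 0.08 under TMM (adjusted p = 0.578, limma). The value in Mir182ΔM/ΔM cells was -0.08 ± 0.11 (adjusted p = 0.564, and 0.0184 with the block, limma). The genotype difference after RANKL was -0.40 ± 0.11 (adjusted p = 0.0223, limma) and -0.24 under TMM, and Mir182ΔM/ΔM cells held 75.9% of the WT level in each replicate. That call was lost under TMM, by edgeR on reads (adjusted p = 0.121) and by DESeq2 (adjusted p = 0.116). It was also lost without replicate 1 of Mir182ΔM/ΔM or replicate 2 of WT after RANKL, at a log2 change of -0.32 in either case.

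Ostm1 moved the other way with RANKL. It was at 112 and 123 CPM in WT cells at baseline and 88.2 and 90.5 CPM after RANKL, and at 114 and 115 CPM and then 72.0 and 78.8 CPM in Mir182ΔM/ΔM cells. Libraries after RANKL were below baseline in both genotypes, without overlap. Ostm1 fell by 0.39 ± 0.07 on the log2 scale in WT cells (adjusted p = 3.18e-03) and fell by 0.60 ± 0.07 in Mir182ΔM/ΔM cells (adjusted p = 4.28e-04, limma). Under TMM the responses were -0.59 and -0.63, and the genotype difference after RANKL was -0.09. The genotype difference after RANKL, -0.24 ± 0.07 (adjusted p = 0.0335), did not pass when only the 4 libraries of the comparison were fitted (adjusted p = 0.0727, limma). Nor did it pass under quantile normalization (adjusted p = 0.164, limma), by edgeR on reads (adjusted p = 0.368) or by DESeq2 (adjusted p = 0.466). It was also lost when either WT library after RANKL, either Mir182ΔM/ΔM library at baseline or replicate 1 of Mir182ΔM/ΔM after RANKL was left out, with adjusted p from 0.0584 to 0.168.

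The traffic genes split. Snx10 encodes a sorting nexin of the endosome that osteoclasts need to resorb bone. It was at 102 and 105 CPM in WT cells at baseline and at 240.5 and 231 CPM after RANKL, and at 103 and 101 CPM and then 154 and 156 CPM in Mir182ΔM/ΔM cells. The libraries formed 3 separate levels, with both baselines together at the bottom, Mir182ΔM/ΔM after RANKL between and WT after RANKL on top. RANKL raised Snx10 by 1.18 ± 0.06 on the log2 scale in WT cells (adjusted p = 3.11e-06) and by 0.60 ± 0.06 in Mir182ΔM/ΔM cells (adjusted p = 1.13e-04), and the genotypes differed by -0.60 ± 0.06 after RANKL (adjusted p = 1.90e-04, limma).

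Plekhm1, which encodes an adaptor of RAB7 in lysosome fusion, was the member that fell most. It had 368 and 379 CPM in WT cells at baseline and 156 and 162 CPM after RANKL, and 344 and 355 CPM and then 168 and 169.8 CPM in Mir182ΔM/ΔM cells. RANKL libraries lay well below baseline in both genotypes. Plekhm1 fell by 1.23 ± 0.06 in WT cells (adjusted p = 2.42e-06) and fell by 1.05 ± 0.06 in Mir182ΔM/ΔM cells (adjusted p = 6.63e-06, limma). It was the only member whose Mir182ΔM/ΔM libraries after RANKL lay above the WT libraries, at 108% and 105% of the WT level, a difference that did not pass in the main test (0.09 ± 0.06, adjusted p = 0.244). It passed with the replicate block (adjusted p = 0.0125), under TMM (0.24, adjusted p = 0.0132, limma), by edgeR (adjusted p = 0.0151) and by DESeq2 (adjusted p = 0.00971). Under TMM the responses were -1.43 in WT and -1.08 in Mir182ΔM/ΔM cells.

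**Figure D3:**
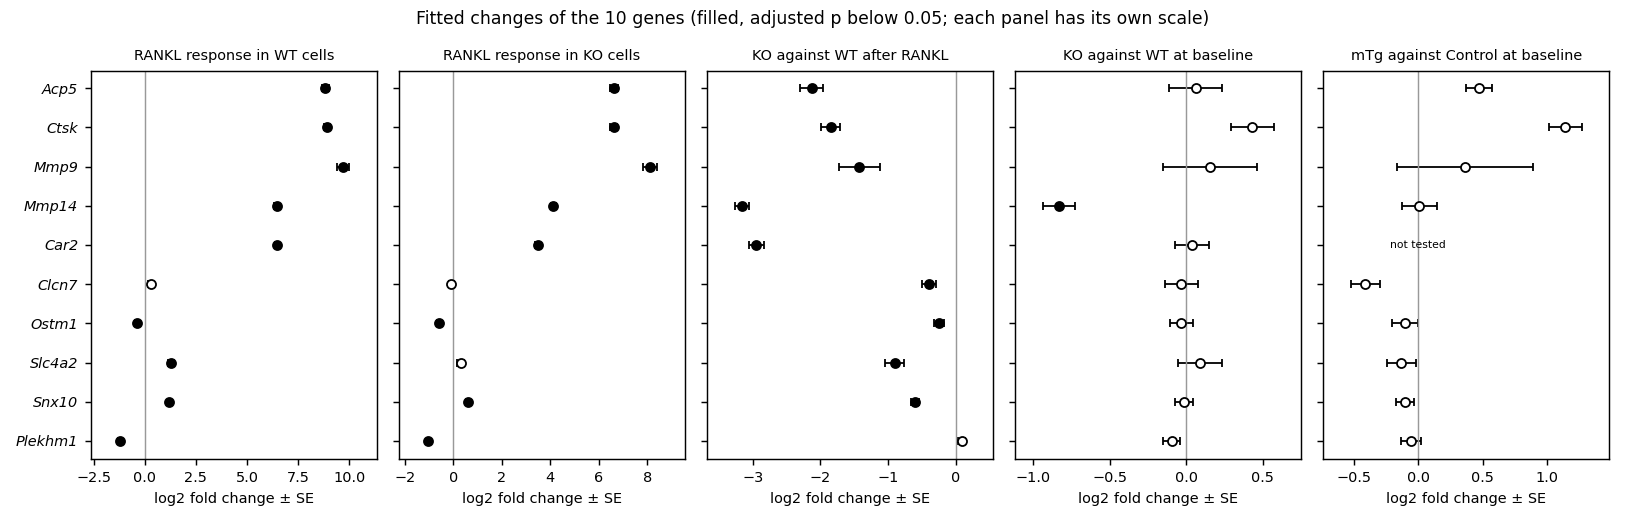
Fitted log2 fold change with its SE (horizontal bar) for each gene (rows) in 5 comparisons (panels, each with its own scale), filled where the adjusted p was below 0.05. After RANKL, 9 genes lay to the left of 0 with filled points in KO against WT cells, and in mTg against Control cells every point was open.

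The difference in RANKL response between the genotypes was tested as an interaction term, and it passed for Acp5, Ctsk, Mmp9, Mmp14, Car2, Slc4a2 and Snx10, each time with a smaller response in Mir182ΔM/ΔM cells. Of all genes, 17.1% were called lower and 7.44% higher in this test. The interaction was -2.98 ± 0.16 on the log2 scale for Car2 (adjusted p = 5.42e-05), -2.33 ± 0.15 for Mmp14 (adjusted p = 1.12e-04), -2.28 ± 0.20 for Ctsk (adjusted p = 2.86e-04) and -2.19 ± 0.24 for Acp5 (adjusted p = 8.65e-04, limma). Smaller terms were found for Slc4a2, at -0.99 ± 0.20 (adjusted p = 0.0115), and Snx10, at -0.59 ± 0.08 (adjusted p = 2.27e-03, limma). The term for Mmp9, -1.58 ± 0.43 (adjusted p = 0.0364), did not pass under TMM (adjusted p = 0.0596), under edgeR or DESeq2 on reads (adjusted p 0.0703 and 0.0949), and with a pseudocount of 0.1 (adjusted p = 0.0600) or without the filter on low values (adjusted p = 0.0588). It was also lost when any 1 of 6 libraries was left out, that is all but replicate 1 of WT and replicate 2 of Mir182ΔM/ΔM at baseline (adjusted p from 0.0703 to 0.101). That of Car2 did not pass under edgeR (adjusted p = 0.159), its baseline resting on 0 to 4 reads. Clcn7, Ostm1 and Plekhm1 did not pass, at -0.36 ± 0.15, -0.21 ± 0.11 and 0.18 ± 0.08, and each passed with the replicate block. Under TMM without the block Plekhm1 passed at 0.35 (adjusted p = 0.0207), as it did by edgeR and DESeq2 on reads, while Clcn7 was at -0.19 (adjusted p = 0.470) and Ostm1 at -0.04 (adjusted p = 0.836, limma). With both TMM and the block, Clcn7 and Plekhm1 passed and Ostm1 did not. With the block, 42.8% of all genes were called lower and 16.1% higher.

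Without RANKL, Mir182mTg cells held more Ctsk and Acp5 and less Clcn7 than Control cells in both replicates, by differences that did not pass in the main test. Ctsk was at 11.3 and 12.7 CPM in Mir182mTg cells and at 5.52 and 5.25 CPM in Control cells. Acp5 was at 13.6 CPM in both Mir182mTg libraries and at 9.74 and 9.79 CPM in both Control libraries. Clcn7 was at 105 and 121 CPM in Mir182mTg cells and at 139 and 159.9 CPM in Control cells. For these 3 genes and Snx10, which was lower, the groups did not overlap. Among all genes tested, 18.0% were higher and 14.1% lower without overlap. The ratio to Control was alike in the replicates, at 204% and 243% for Ctsk, 139.8% and 139% for Acp5, and 75.6% and 75.9% for Clcn7. The log2 changes were 1.14 ± 0.13 for Ctsk (adjusted p = 0.0558), 0.47 ± 0.10 for Acp5 (adjusted p = 0.265) and -0.41 ± 0.11 for Clcn7 (adjusted p = 0.434, edgeR). With the block they passed at adjusted p 1.55e-06, 1.16e-03 and 4.08e-07, and Slc4a2 was lower as well, by -0.13 ± 0.03 (adjusted p = 0.0153, edgeR). The block called 6.94% of all genes higher and 8.15% lower here. Ctsk also passed by DESeq2 (adjusted p = 1.02e-04) and without the filter on low values (adjusted p = 3.67e-03). Leaving out either Control library, or replicate 1 of Mir182mTg, brought it past the threshold too, with adjusted p from 2.44e-03 to 0.0142.

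The other members lay close together in these cells. Slc4a2 was at 110.1 and 129 CPM in Mir182mTg and 121 and 139 CPM in Control cells, and Ostm1 at 96.6 and 112 CPM against 106 and 116 CPM. Snx10 was at 107 and 105 CPM against 115 and 111 CPM, and Plekhm1 at 190.3 and 192 CPM against 189 and 206 CPM. Groups overlapped for these genes except Snx10, whose Mir182mTg libraries were both lower (log2 change -0.10 ± 0.07, adjusted p = 0.9997, edgeR). Mmp14 was at 4.60 and 4.83 CPM against 4.63 and 4.69 CPM, and Mmp9 at 5.48 and 2.94 CPM against 4.79 and 1.66 CPM. Car2 was not tested, with 10 reads over the Mir182mTg libraries and 12 over the Control libraries, a ratio of 0.790 (95% exact counting interval 0.306 to 1.99).

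**Figure D4:**
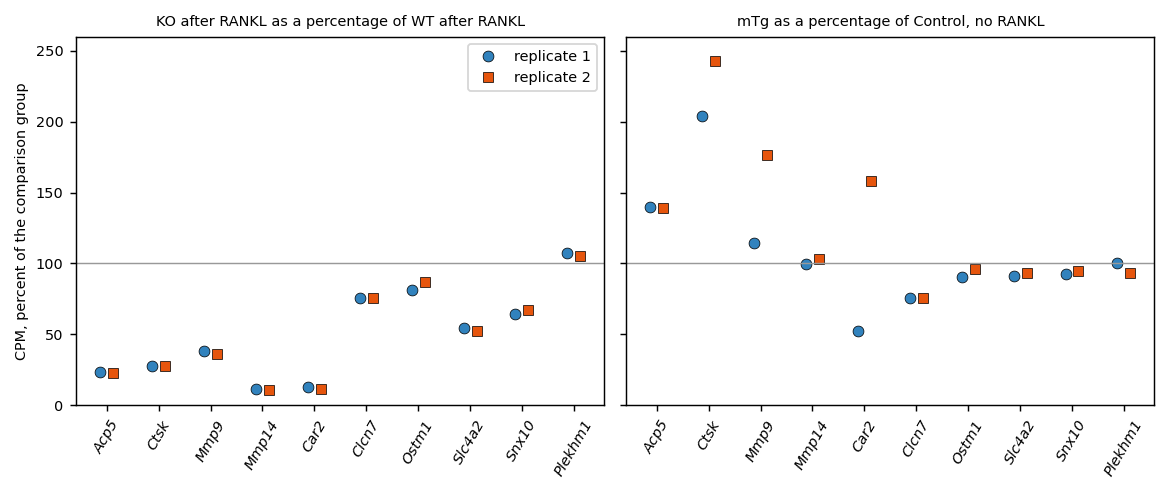
CPM of KO cells as a percentage of WT cells after RANKL (left) and of mTg cells as a percentage of Control cells (right) for each gene, with replicate 1 and replicate 2 paired by number as circles and squares and a line at 100%. On the left the pairs range from 10.6% for Mmp14 to 108% for Plekhm1; on the right Ctsk reaches 204% and 243%, and Car2 rests on 10 and 12 reads.

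Because Lyz2 and Ifi202b placed the WT libraries after RANKL with the Control libraries, the WT response was also computed against Control cells, a choice made after the data were seen. Control and WT cells at baseline have the same growth conditions and an intact Mir182 gene but come from different experiments. Against Control, 8 of the 10 genes were called higher and 2 lower, where 29.6% and 23.1% of all genes were. The rises of Acp5, Ctsk, Mmp9, Mmp14 and Car2 remained large, with ratios of means of 239, 347, 1529, 61.6 and 455, the last resting on 12 reads. Slc4a2 and Snx10 had ratios of 2.28 and 2.09, close to the 2.46 and 2.28 against WT baseline. The ratios of Acp5, Ctsk, Mmp9, Mmp14 and Car2 against WT baseline were 552, 632, 960.3, 125 and 1987. Among the members with smaller changes, Clcn7 and Plekhm1 moved with the reference. Clcn7 was 2.60 times as high after RANKL as in Control cells (log2 change 1.37 ± 0.12, adjusted p = 9.36e-06) against 1.22 times as high as in WT cells at baseline. Plekhm1 was lower by -0.31 ± 0.06 (adjusted p = 1.13e-03, limma) in place of -1.23.

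Control and WT cells at baseline differed directly in 5 of the 10 genes, with 3 (30.0%) higher and 2 (20.0%) lower in Control cells. These shares were near those of all genes, of which 32.4% were called higher and 19.5% lower. Clcn7 in Control cells was at 46.7% and 47.0% of the WT level in the replicates (log2 change -1.09 ± 0.12, adjusted p = 5.90e-05). Plekhm1, at 189 and 206 CPM, was at 51.4% and 54.4% (log2 change -0.92 ± 0.06, adjusted p = 1.68e-06, limma). Acp5, Ctsk and Mmp14 were higher in Control cells, with ratios of means of 2.31, 1.82 and 2.03. For Clcn7 and Plekhm1 the difference between these nominally similar baselines was larger than any difference between the genotypes within an experiment. Genotype, experiment and library preparation cannot be told apart in it.

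Among related genes, most V-ATPase subunits were lower in Mir182ΔM/ΔM cells after RANKL. Of 18 subunits tested, 14 were lower and 0 higher, beside 30.9% and 14.3% of all genes. The median log2 change was -0.58 beside -0.14 over all genes. Under TMM 10 were lower and 1 higher, beside 20.2% and 20.9% of all genes. RANKL raised 11 (61.1%) and lowered 2 (11.1%) of the subunits in WT cells, beside 40.6% and 22.0% of all genes. In Mir182ΔM/ΔM cells it raised 2 (11.1%) and lowered 6 (33.3%), beside 30.4% and 26.4% of all genes. Under TMM the WT split was 6 raised and 4 lowered, beside 28.8% and 30.5% of all genes. Atp6v0d2, the d2 subunit of the osteoclast pump, rose from 39.0 and 30.0 CPM to 718 and 553 CPM in WT cells and from 41.6 and 31.9 to 118 and 95.7 CPM in Mir182ΔM/ΔM cells. Its libraries after RANKL did not overlap between genotypes (log2 change -2.56 ± 0.20, adjusted p = 6.84e-05, limma). Atp6v0a1, an a subunit, went the other way with RANKL, from 602 and 557 CPM to 160.1 and 149 CPM in WT cells.

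The other cathepsins differed in direction from Ctsk. Of 12 tested, 9 were lower and 2 higher after RANKL in WT cells, beside 22.0% and 40.6% of all genes. The median log2 change was -0.75 beside 0.19 over all genes. In Mir182ΔM/ΔM against WT cells after RANKL, 7 were higher and 3 lower, beside 14.3% and 30.9% of all genes. Under TMM these counts between genotypes were the same, beside 20.9% and 20.2% of all genes. The WT response under TMM had 10 cathepsins lower and 2 higher, beside 30.5% and 28.8% of all genes. Ctsb, cathepsin B, a general lysosomal protease, fell from 19860 and 20195 CPM to 4017 and 4174 CPM in WT cells (log2 change -2.29 ± 0.08, adjusted p = 5.47e-07, limma). Ctsl, cathepsin L, was at 2009 and 2314 CPM in Mir182ΔM/ΔM cells and at 744 and 826 CPM in WT cells after RANKL (log2 change 1.46 ± 0.09, adjusted p = 3.17e-05, limma). Ctsh, cathepsin H, was lower, at 19.5 and 18.1 against 61.1 and 63.9 CPM. Ctss, cathepsin S, was the only gene of these lists called at baseline, higher in Mir182ΔM/ΔM cells at 1730 and 1573 against 1282 and 1149 CPM (adjusted p = 0.0468, limma).

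Other matrix metalloproteinases were mostly low, with 6 of 16 tested. In WT cells 1 rose and 4 fell with RANKL, beside 40.6% and 22.0% of all genes. After RANKL 2 were higher and 3 lower in Mir182ΔM/ΔM than in WT cells, beside 14.3% and 30.9% of all genes. Under TMM 2 were higher and 2 lower there, beside 20.9% and 20.2% of all genes. Mmp8, the neutrophil collagenase, fell from 54.3 and 48.7 to 6.50 and 4.43 CPM in WT cells. Mmp12, the macrophage elastase, was higher in Mir182ΔM/ΔM cells after RANKL, at 127 and 106 against 55.0 and 44.1 CPM (adjusted p = 1.22e-03, limma). Of 7 protease inhibitors tested, 1 (14.3%) was higher and 2 (28.6%) lower between these groups, close to the 14.3% and 30.9% of all genes. Timp2, which inhibits metalloproteinases, was the higher one, at 488 and 457 against 398 and 371 CPM. Cstb, cystatin B, rose with RANKL in both genotypes, by 1.01 ± 0.07 in WT and 0.79 ± 0.07 in Mir182ΔM/ΔM cells on the log2 scale.

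The ion transport and acid phosphatase lists were small. Over all genes 40.6% rose and 22.0% fell with RANKL in WT cells. Between genotypes after RANKL 14.3% of all genes were higher and 30.9% lower in Mir182ΔM/ΔM cells. All 3 SLC4 transporters tested rose with RANKL in WT cells, and 1 was higher and 2 lower in Mir182ΔM/ΔM cells after RANKL. Slc4a7, a sodium bicarbonate cotransporter, rose in Mir182ΔM/ΔM cells from 54.8 and 56.7 to 541 and 550.2 CPM, above the 374 and 355 CPM of WT cells after RANKL (adjusted p = 2.43e-04, limma). Slc4a3, the anion exchanger AE3, was at 6.42 and 8.10 CPM in WT and 0.361 and 0.157 CPM in Mir182ΔM/ΔM cells. Of 5 CLC family genes, 1 rose and 2 fell in WT cells and 2 were lower between genotypes. Of 3 other carbonic anhydrases, 2 were higher in Mir182ΔM/ΔM cells after RANKL, with Car13 at 62.9 and 59.7 against 36.6 and 31.6 CPM. The other acid phosphatases divided as well, with Acp2, the lysosomal enzyme, higher and 3 of the 4 tested lower, among them Acp1 at 11.9 and 13.8 against 29.2 and 31.5 CPM.

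Lysosome positioning and sorting nexin genes went down with RANKL more often than up. Of 25 positioning and ruffled border genes tested, 3 rose and 12 fell in each genotype. Of all genes 40.6% rose and 22.0% fell in WT cells, and 30.4% and 26.4% in Mir182ΔM/ΔM cells. Between genotypes after RANKL 5 of the 25 genes were higher and 7 lower, beside 14.3% and 30.9% of all genes. Under TMM the balance turned, to 9 higher and 3 lower, beside 20.9% and 20.2% of all genes. Rab38, a RAB of lysosome-related organelles, was at 10.6 and 11.8 CPM in WT and 3.94 and 3.50 CPM in Mir182ΔM/ΔM cells after RANKL. Plekhm3, a relative of Plekhm1, was higher in Mir182ΔM/ΔM cells, at 129.7 and 127 against 65.8 and 70.03 CPM. Of 27 other PX domain sorting nexins, 2 rose and 13 fell in WT cells, beside 40.6% and 22.0% of all genes. The rise of Snx10 was thus not shared by most of its family. Between genotypes after RANKL 4 (14.8%) of these nexins were higher and 7 (25.9%) lower, near the 14.3% and 30.9% of all genes. Under TMM 6 were higher and 5 lower, beside 20.9% and 20.2% of all genes. In the comparison of Mir182mTg with Control cells, 0 of the 118 genes of the 10 lists that were tested was called by edgeR, with 16 at an unadjusted p below 0.05. DESeq2 called 1, Ctss, and edgeR with the replicate block called 35, where the block called 6.94% of all genes higher and 8.15% lower.

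**Figure D5:**
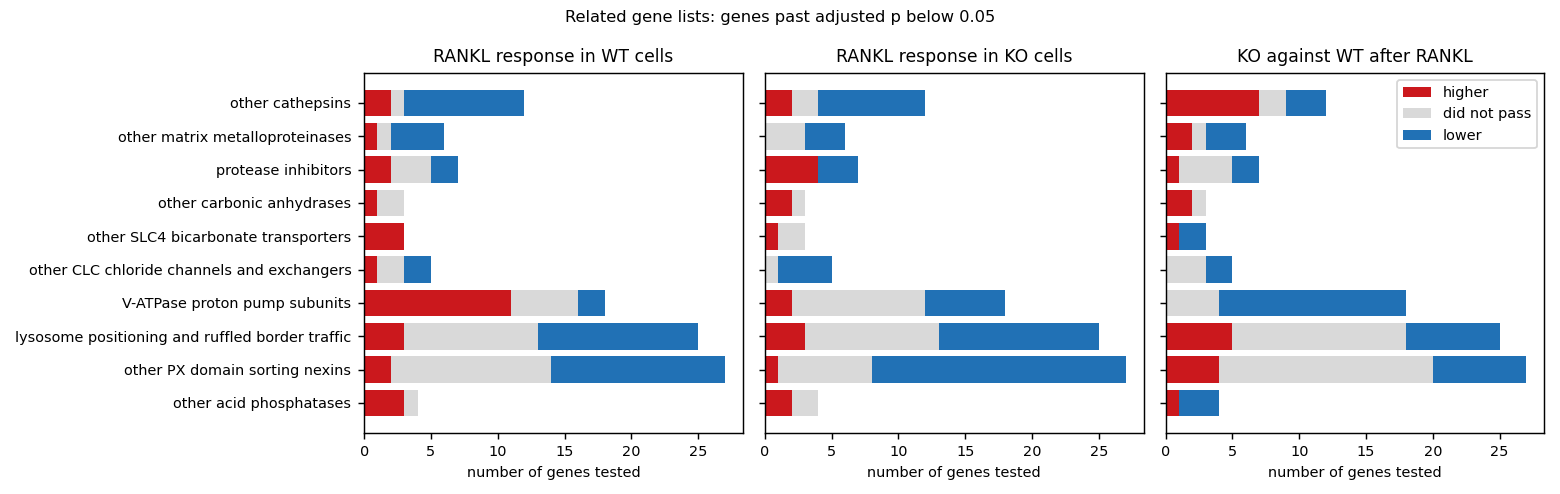
Number of genes tested in each of 10 related lists (rows) that were higher, lower or did not pass at an adjusted p of 0.05, in 3 comparisons (panels). Of 18 V-ATPase subunits, 11 were higher with RANKL in WT cells, 2 in KO cells, and 14 were lower in KO than in WT cells after RANKL. The same calls held for 40.6%, 30.4% and 30.9% of all genes.

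The genes whose pattern was most like each member were found by Pearson's r of log2(CPM + 1) over the 12 libraries among 10290 genes, as a description, since the libraries share conditions and preparation. Acp5 was closest to Src (r = 0.999), the kinase of the ruffled border, and Dock5 (r = 0.999), and Ctsk to Acp5 (r = 0.997) and Lims2 (r = 0.997). Car2 was closest to Scin (r = 0.999), an actin-severing protein gene, and Ido2 (r = 0.998), and Snx10 to Scin (r = 0.995) and Ccser1 (r = 0.995). Mmp9 lay nearest to Ktn1 and Smurf1 (both r = 0.995), Mmp14 to Akap6 (r = 0.996) and Egfr (r = 0.993), and Slc4a2 to Snd1 (r = 0.993) and Relt (r = 0.991). Ostm1 lay nearest to Emilin1 (r = 0.989) and Cc2d1b (r = 0.988), Plekhm1 to Gpr176 (r = 0.995) and Gas6 (r = 0.994). Clcn7 had the loosest neighbours, Ago1 and Fam160a2 (both r = 0.975).

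Markers of the cell types the cultures could hold were read beside these results. All 6 macrophage markers were above 3 reads in every library, with a summed level of 5620.0 to 8475 CPM. After RANKL they did not differ alike between genotypes. Fcgr1 (148 and 167 against 18.5 and 19.8 CPM) and Adgre1 were higher in Mir182ΔM/ΔM than in WT cells. Csf1r (1444 and 1512 against 2032 and 2169 CPM) and Itgam were lower, and the libraries of Cd68 and Mertk overlapped. Of 5 osteoclast markers other than the 10 genes, all were above 3 reads in both libraries of each RANKL condition. Their sum was 7.63 to 16.4 CPM without RANKL, 363 and 431 CPM in WT and 161 and 168 CPM in Mir182ΔM/ΔM cells after RANKL. Calcr, the calcitonin receptor gene, was at 0 in every baseline library and at 9.78 and 8.997 CPM in WT and 9.07 and 9.68 CPM in Mir182ΔM/ΔM cells after RANKL, with no separation of the genotypes. Itgb3, the β3 integrin gene, was higher in Mir182ΔM/ΔM than in WT cells after RANKL, at 83.7 and 82.6 against 58.1 and 59.8 CPM. The other 3 markers were lower in Mir182ΔM/ΔM cells. Dcstamp, a cell fusion gene, was at 27.7 and 36.8 against 162 and 210.1 CPM, Ocstamp, another fusion gene, at 22.2 and 22.7 against 96.5 and 117 CPM, and Oscar, a receptor gene of osteoclasts, at 18.5 and 16.3 against 36.4 and 34.5 CPM. In bulk RNA, fewer osteoclasts and less RNA of a gene per osteoclast cannot be told apart.

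Neutrophils also make Mmp9 and Mmp8, and 8 neutrophil markers summed to 139.6 to 158 CPM in the loss of function libraries at baseline, to 28.7 and 26.3 CPM in WT and to 11.04 and 11.1 CPM in Mir182ΔM/ΔM cells after RANKL. In the gain of function libraries they summed to 107 and 100.2 CPM in Control and to 158 and 146 CPM in Mir182mTg cells, where Ctsk and Acp5 were higher too. Mmp8 went against this sum, at 41.1 and 38.7 CPM in Mir182mTg and 56.3 and 50.7 CPM in Control cells. Every other neutrophil marker was higher in both Mir182mTg libraries. Stromal cells also make Mmp14, and 8 stromal markers summed to 4.18 to 23.2 CPM at baseline in the loss of function libraries and to 17.1 to 38.8 CPM after RANKL, with replicate 2 the higher in every condition. The 4 dendritic cell markers summed to 6.13 to 7.22 CPM at baseline and 21.1 to 22.1 CPM after RANKL in these libraries, and to 22.4 and 22.8 CPM in Control cells. Most of each sum was Itgax, at 5.41 and 5.17 CPM in WT cells at baseline and 21.5 and 21.7 CPM in Control cells. Flt3, Zbtb46 and Ccr7 were each below 1 CPM in both of these groups, and their libraries overlapped. The part of these cell types in the results was not tested. Red cells also make Car2, and the 10 erythroid genes listed summed to at most 0.179 CPM in every library. B cell markers summed to at most 3.67 CPM and T cell markers to at most 0.144 CPM.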

How the data were processed

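RNA-seq libraries were made by the authors from BMMs of 6 conditions, 2 each, by poly-A+ selection according to the protocol text. Reads were aligned to mm10 (TopHat and HISAT2) and counted per gene with HTSeq. Whether counting used strand is not given in the sources used here. For 8 loss of function libraries the deposited values are CPM scaled to 1000000, and 100.0% of values came out as whole reads (tolerance 0.01 reads). For 4 gain of function libraries the authors deposited raw counts. The deposited RPKM of replicate 1 gave the gene lengths used for per-kilobase levels. Depth was 28246201 reads on genes on average.

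CPM were tested with limma 3.58.1 (trend, log2(CPM + 1), 1 fit of 4 groups, genes reaching 1 CPM in 2 or more of 8 libraries), and counts with edgeR 4.0.16 (TMM, quasi-likelihood, 12081 genes), with Benjamini-Hochberg adjustment over all genes. The pseudocount makes the changes of low genes too small. The SE of an edgeR change is its size divided by the square root of F. Alternatives were another pseudocount, filters, TMM, quantile, upper-quartile or total scaling, edgeR or DESeq2 1.42.0 on reads, single contrasts, a replicate block and each library left out. Replicate numbers pair the libraries: deviations from the condition means correlated at 0.686 to 0.754 between conditions, and the labels give poly-A RNA for replicate 1 and total RNA for replicate 2, in which the ribosomal row Rn45s was at 9778 to 21273 CPM against 742 to 1176 CPM. Members and lists were chosen with earlier results of these data known. Named genes of the lists are the largest riser and faller called per comparison, at 5 CPM or more in the higher group and without overlap, and the text gives part of them. Scripts were tested on simulated data. The comparisons with Control cells were added after the data were seen.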

Additional observations from a re-analysis of the deposited data

Results flagged for a closer look

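The response to RANKL differed between Mir182ΔM/ΔM and WT cells, by the interaction term of the limma fit, for 7 of the 10 genes. The difference was -2.98 on the log2 scale for Car2, -2.33 for Mmp14, -2.28 for Ctsk, -2.19 for Acp5, -1.58 for Mmp9, -0.99 for Slc4a2 and -0.59 for Snx10, each lower in Mir182ΔM/ΔM cells (adjusted p from 5.42e-05 for Car2 to 0.0364 for Mmp9, limma). All 7 rest on the WT libraries after RANKL, in which Lyz2 was at 4117 and 4288 CPM against 44.0 CPM or less in the other loss of function libraries. The part of that difference in these values was not tested. The Mmp9 term did not pass under TMM (adjusted p = 0.0596, limma), by edgeR on reads (adjusted p = 0.0703) or by DESeq2 (adjusted p = 0.0949). It was also lost with a pseudocount of 0.1 and without the filter on low values. The Car2 term did not pass by edgeR on reads (adjusted p = 0.159), its baseline resting on 0 to 4 reads.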

How the results depend on the processing

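Of 1050 values of single members under alternatives, 958 kept their direction and their side of the threshold, 39 passed only under the alternative, 31 lost the call and 22 changed sign, all 22 among values that had not passed. The RANKL responses in both genotypes gave counts of members and of genes within 1.5 times the main ones under every alternative. Between genotypes after RANKL, Clcn7 and Ostm1 lost their lower calls under TMM factors, edgeR and DESeq2, and Ostm1 also under quantile normalization. TMM factors, the replicate block, the block with TMM, edgeR and DESeq2 each called 1 member higher (Plekhm1) there in place of 0. The block called 8555 genes, or 8109 with TMM, in place of 5275. For the interaction the same 5 alternatives each called 1 member higher (Plekhm1) in place of 0, and the block called 6889 genes, or 6064 with TMM, in place of 2875. At baseline the block called 3651 genes, or 3649 with TMM, in place of 446, with 1 member higher and 2 lower in either case. The filter of at least 1 CPM in every library and the fit of the 4 baseline libraries left 0 members lower, the latter with 54 genes called. Leaving out 1 library gave 102 to 282 genes and 0 to 1 member lower there. For Mir182mTg against Control cells, 141 genes were called without the filter, 1822 with the block, 130 by DESeq2 and 50 by limma in place of 31, with 1 member higher (Ctsk) without the filter, by DESeq2 and by limma. The block called 2 higher and 2 lower. Leaving out 1 library gave 42 to 133 genes and 0 to 1 member higher. Between Control and WT cells at baseline the block called 5 members higher in Control and 3 lower in place of 3 and 2, and TMM turned Slc4a2 from 0.11 to -0.0025, neither past the threshold. Apart from these and from the calls given with their comparisons, the block changed no call of a member. Values that changed sign when 1 library was left out had not passed beforehand, and on the log2 scale they ranged as follows. Between genotypes at baseline Acp5 ranged from -0.18 to 0.30, Mmp9 from -0.27 to 0.58, Car2 from -0.063 to 0.14, Clcn7 from -0.14 to 0.070, Ostm1 from -0.10 to 0.033, Slc4a2 from -0.068 to 0.25 and Snx10 from -0.038 to 0.0070. For Mir182mTg against Control, Mmp9 ranged from -0.18 to 1.34, Mmp14 from -0.025 to 0.040 and Plekhm1 from -0.12 to 0.012. Clcn7 ranged from -0.18 to 0.025 in the response of Mir182ΔM/ΔM cells, and Slc4a2 from -0.042 to 0.27 between Control and WT. Where leaving out a library left 1 in its group, that library was taken to vary like the others. At this depth Car2 without RANKL was too low to compare. The cause of these changes was not tested.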
